A study of Homo sapiens with 27 samples.

Results

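The genes described here are 41 genes of homologous recombination and Fanconi anaemia repair, taken by symbol from an RNA count table of 57992 genes. The table came from 3 human acute myeloid leukaemia cell lines in which the arginine methyltransferase CARM1 (also called PRMT4) was knocked down. Of the 41 symbols, 40 were found as written. MRE11A is listed under its current symbol MRE11, and RAD54B has a pair of rows, of which ENSG00000197275 was used. All 41 genes passed the filter on low counts in every line. The 9 groups of 3 libraries were, in each of the lines MOLM13 (MOLM-13), MV411 and SKNO1, cells with CARM1 hairpin 2, cells with CARM1 hairpin 1 and cells with a scramble shRNA. All shRNAs were delivered by constitutive lentivirus and RNA was taken 3 days later, so the scramble cells carry a vector too. SKNO1 cells grew with 10 ng/mL GM-CSF, a myeloid growth factor, and no supplement is listed for the other lines, so line and culture conditions cannot be told apart. The labels do not say whether replicates were separate cultures or infections, and the p-values measure only the spread between these samples.

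Homologous recombination repairs double-strand breaks and broken replication forks by copying the sister chromatid. Break ends are trimmed to single strands, BRCA1 and BRCA2 help coat them with a strand exchange filament, and the filament invades the matching duplex. The Fanconi anaemia pathway removes crosslinks between DNA strands: a core ubiquitin ligase marks the FANCD2-FANCI clamp, which calls in nucleases and then recombination. Many of these genes are known to be transcribed mainly in S phase in dividing cells. Inherited loss of Fanconi genes causes bone marrow failure and raises the risk of myeloid leukaemia.

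The 27 libraries held between 25063577 and 53291599 expected counts each. CARM1, the targeted gene, was at 16.4% of the scramble mean with hairpin 2 and 19.5% with hairpin 1 in MOLM13, at 13% and 26.2% in MV411, and at 15.6% and 42.5% in SKNO1. Myeloid markers CD33 and PTPRC were expressed in all lines (medians of at least 56.6 CPM, counts scaled to library size). CD34 was at or near 0 in every line, KIT was low in MOLM13 (median 0.402 CPM) and MPO in MV411 (median 2.14 CPM). HOXA9 and MEIS1 were near 0 in SKNO1 only, and RUNX1T1 was expressed in SKNO1 only (median 72.2 CPM). MV411 scramble replicate 2 was the lowest scramble library of that line over the 41 genes. Its mean over them was 0.44 below the scramble mean on the log2(CPM + 1) scale, against 0.35 and 0.09 above it in replicates 1 and 3. Over all genes it did not stand apart. Replicates 2 and 3 were the closest MV411 scramble pair (chi-square per gene 30.9), against 39.1 for replicates 1 and 3 and 48.6 for 1 and 2. Scramble replicates 1 and 3 of SKNO1 were the closest pair (chi-square per gene 7.04, next lowest 20.5), but differed by more than counting noise. Mitochondrial ribosomal RNA moved with the hairpins in MV411, where it held 29.4% to 33.2% of counts with hairpin 2, 31.1% to 34.9% with hairpin 1 and 24.9% to 27.8% with scramble. In MOLM13, it held 27.6% to 29% with hairpin 2, 26.1% to 31.5% with hairpin 1 and 22.9% to 26.4% with scramble, and in SKNO1 at most 0.429%. Small structured RNAs (7SL, 7SK, RNase P and RMRP) held 23.3% to 28.7% with hairpin 2, 24.1% to 25.6% with hairpin 1 and 17.7% to 19.9% with scramble in SKNO1. In MOLM13, they held 13.3% to 21.9% with hairpin 2, 16% to 20.6% with hairpin 1 and 11.3% to 13.5% with scramble. In MV411, they held 11.3% to 14.2% with hairpin 2, 14% to 15.7% with hairpin 1 and 11.2% to 13.1% with scramble. The part of these RNAs in the results was not tested beyond the fit without them.

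With CARM1 hairpins, most recombination and Fanconi genes were lower, and almost none was higher. In MOLM13, hairpin 2 lowered 26 of the 41 genes and hairpin 1 lowered 25, at adjusted p under 0.05 in edgeR's quasi-likelihood test. Of all genes tested in MOLM13, 6.03% were lower and 3.39% higher with hairpin 2, and 4.25% were lower and 2.13% higher with hairpin 1. None of the 41 genes was higher in MOLM13 with either hairpin. In MV411, hairpin 2 lowered 28 and raised 1 (ATM), and hairpin 1 lowered 26 and raised none. The background in MV411 was 10.2% lower and 8.38% higher with hairpin 2, and 4.13% lower and 2.37% higher with hairpin 1. In SKNO1, hairpin 2 lowered 24 and hairpin 1 lowered only XRCC2, with none higher, against backgrounds of 5.69% lower and 5.54% higher with hairpin 2 and 0.277% lower and 0.255% higher with hairpin 1. SKNO1 hairpin 1 also left the most CARM1, and whether the amount left bears on the number of calls was not tested. The median log2 fold change over the 41 genes with hairpin 2 was -1.11 in MOLM13, -1.32 in MV411 and -0.83 in SKNO1. With hairpin 1 the medians were -1.16, -1.27 and -0.46 in the same order of lines. The median of all genes tested lay between -0.02 and 0.07.

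In all 3 lines, 20 genes were lower with hairpin 2: RBBP8, EXO1, BLM, RMI2, BRCA1, BARD1, XRCC2, RAD54B, FANCA, FANCE, FANCG, UBE2T, FANCD2, FANCI, BRIP1, DDX11, EME1, POLQ, C1orf112 and CHEK1. Of the 15347 genes tested in every line, 293 (1.91%) were lower with hairpin 2 in all 3. A further 6 of the 41 fell in a pair of lines, 6 in a single line and 9 in none. Over the 6 comparisons of a hairpin with scramble, XRCC2 was lower in all 6, 17 genes in 5 and 8 genes in 4. Of the 15347 genes, 2.62% were lower in at least 4 comparisons, 1.15% in at least 5 and 0.0261% in all 6. The 9 genes lower in none were RAD50, NBN, PALB2, FANCL, FANCM, SLX4, MUS81, ATR and ATM. The hairpins of a line share their scramble libraries, so their calls are not independent. How many genes passed depended on single libraries. In MOLM13, hairpin 1 gave 12 without scramble replicate 3 or hairpin 1 replicate 2 and 16 without scramble replicate 2 or hairpin 1 replicate 1. Hairpin 2 gave 12 without MOLM13 scramble replicate 3 and 13 without scramble replicate 2. For MV411 the hairpin 1 count was 12, 14 and 15 without hairpin 1 replicate 1, hairpin 1 replicate 2 and scramble replicate 3. Without MV411 scramble replicate 2, the scramble library of that line lowest over the 41 genes, hairpin 2 lowered 32 and hairpin 1 lowered 27. SKNO1 hairpin 2 gave 8 without hairpin 2 replicate 2, and SKNO1 hairpin 1 gave 3 without hairpin 1 replicate 2, 0 without any other of its libraries and 10 with no filter on low counts. Calls over all genes, in either direction, moved too. For MOLM13 hairpin 1 they were 335 of 18101 without scramble replicate 3, against 1131 of 17732 as reported. For SKNO1 hairpin 2 they were 559 of 18918 without hairpin 2 replicate 2, against 2069 of 18430. For SKNO1 hairpin 1 with no filter they were 774 of 34493, against 98 of 18430. Without MV411 scramble replicate 2 they were 3109 of 18238 for hairpin 2, against 3313 of 17816. XRCC2 and FANCI were lower whichever library was left out in 5 of the 6 comparisons, all but hairpin 1 in SKNO1, and CHEK1 in 4.

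**Figure D1:**
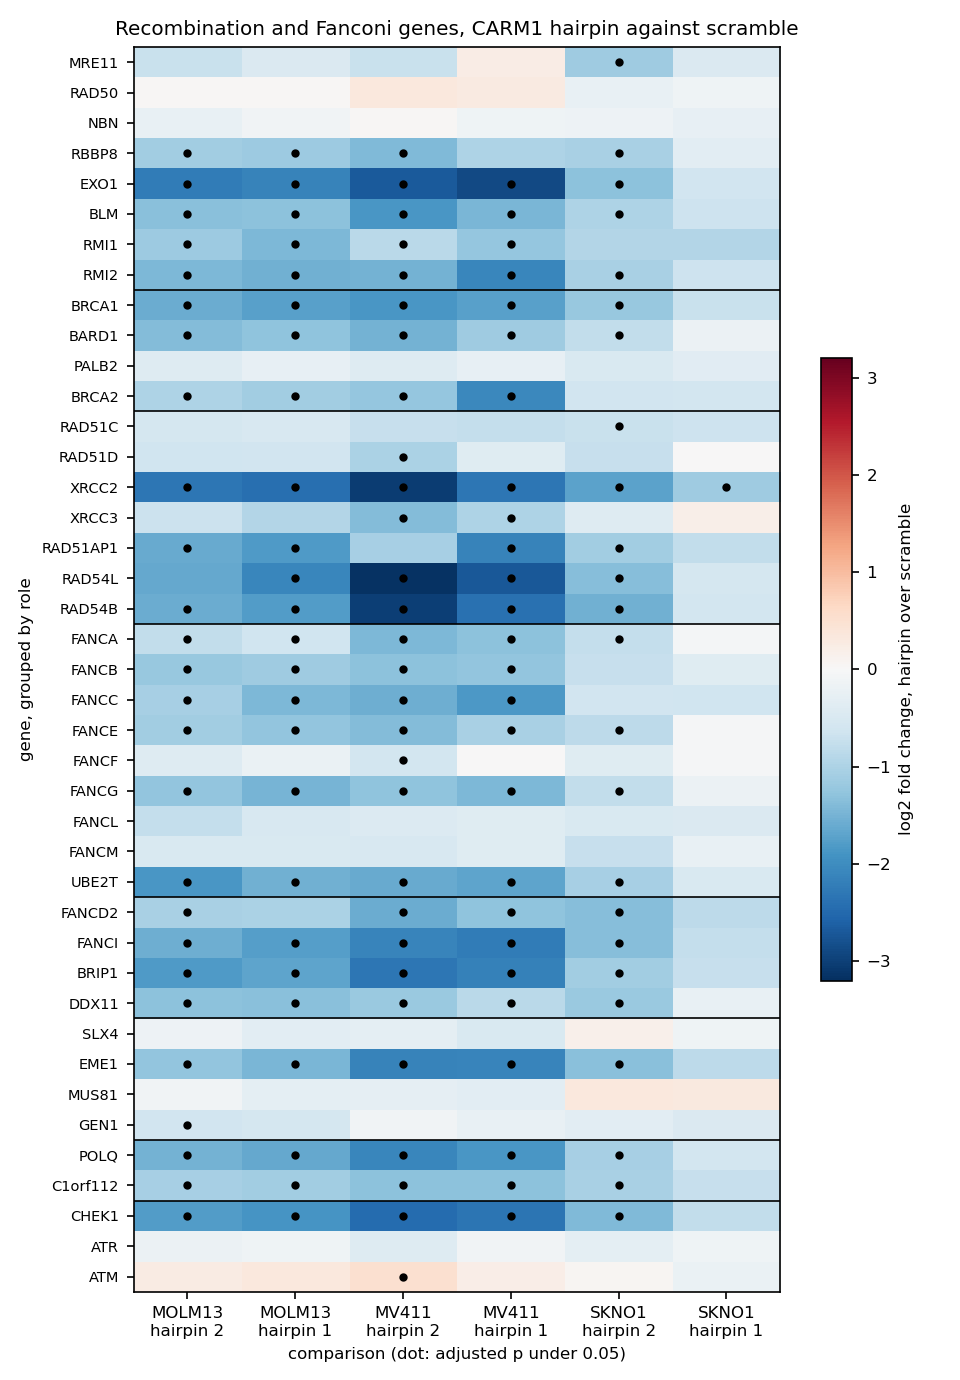
Log2 fold change of each of the 41 genes (rows, grouped by role) with hairpin 2 and hairpin 1 over scramble in MOLM13, MV411 and SKNO1 (columns); blue is lower and red higher with the hairpin, and a dot marks adjusted p under 0.05. The MOLM13 and MV411 columns and SKNO1 hairpin 2 hold between 24 and 29 dots, and SKNO1 hairpin 1 holds 1, at XRCC2.

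**Figure D2:**
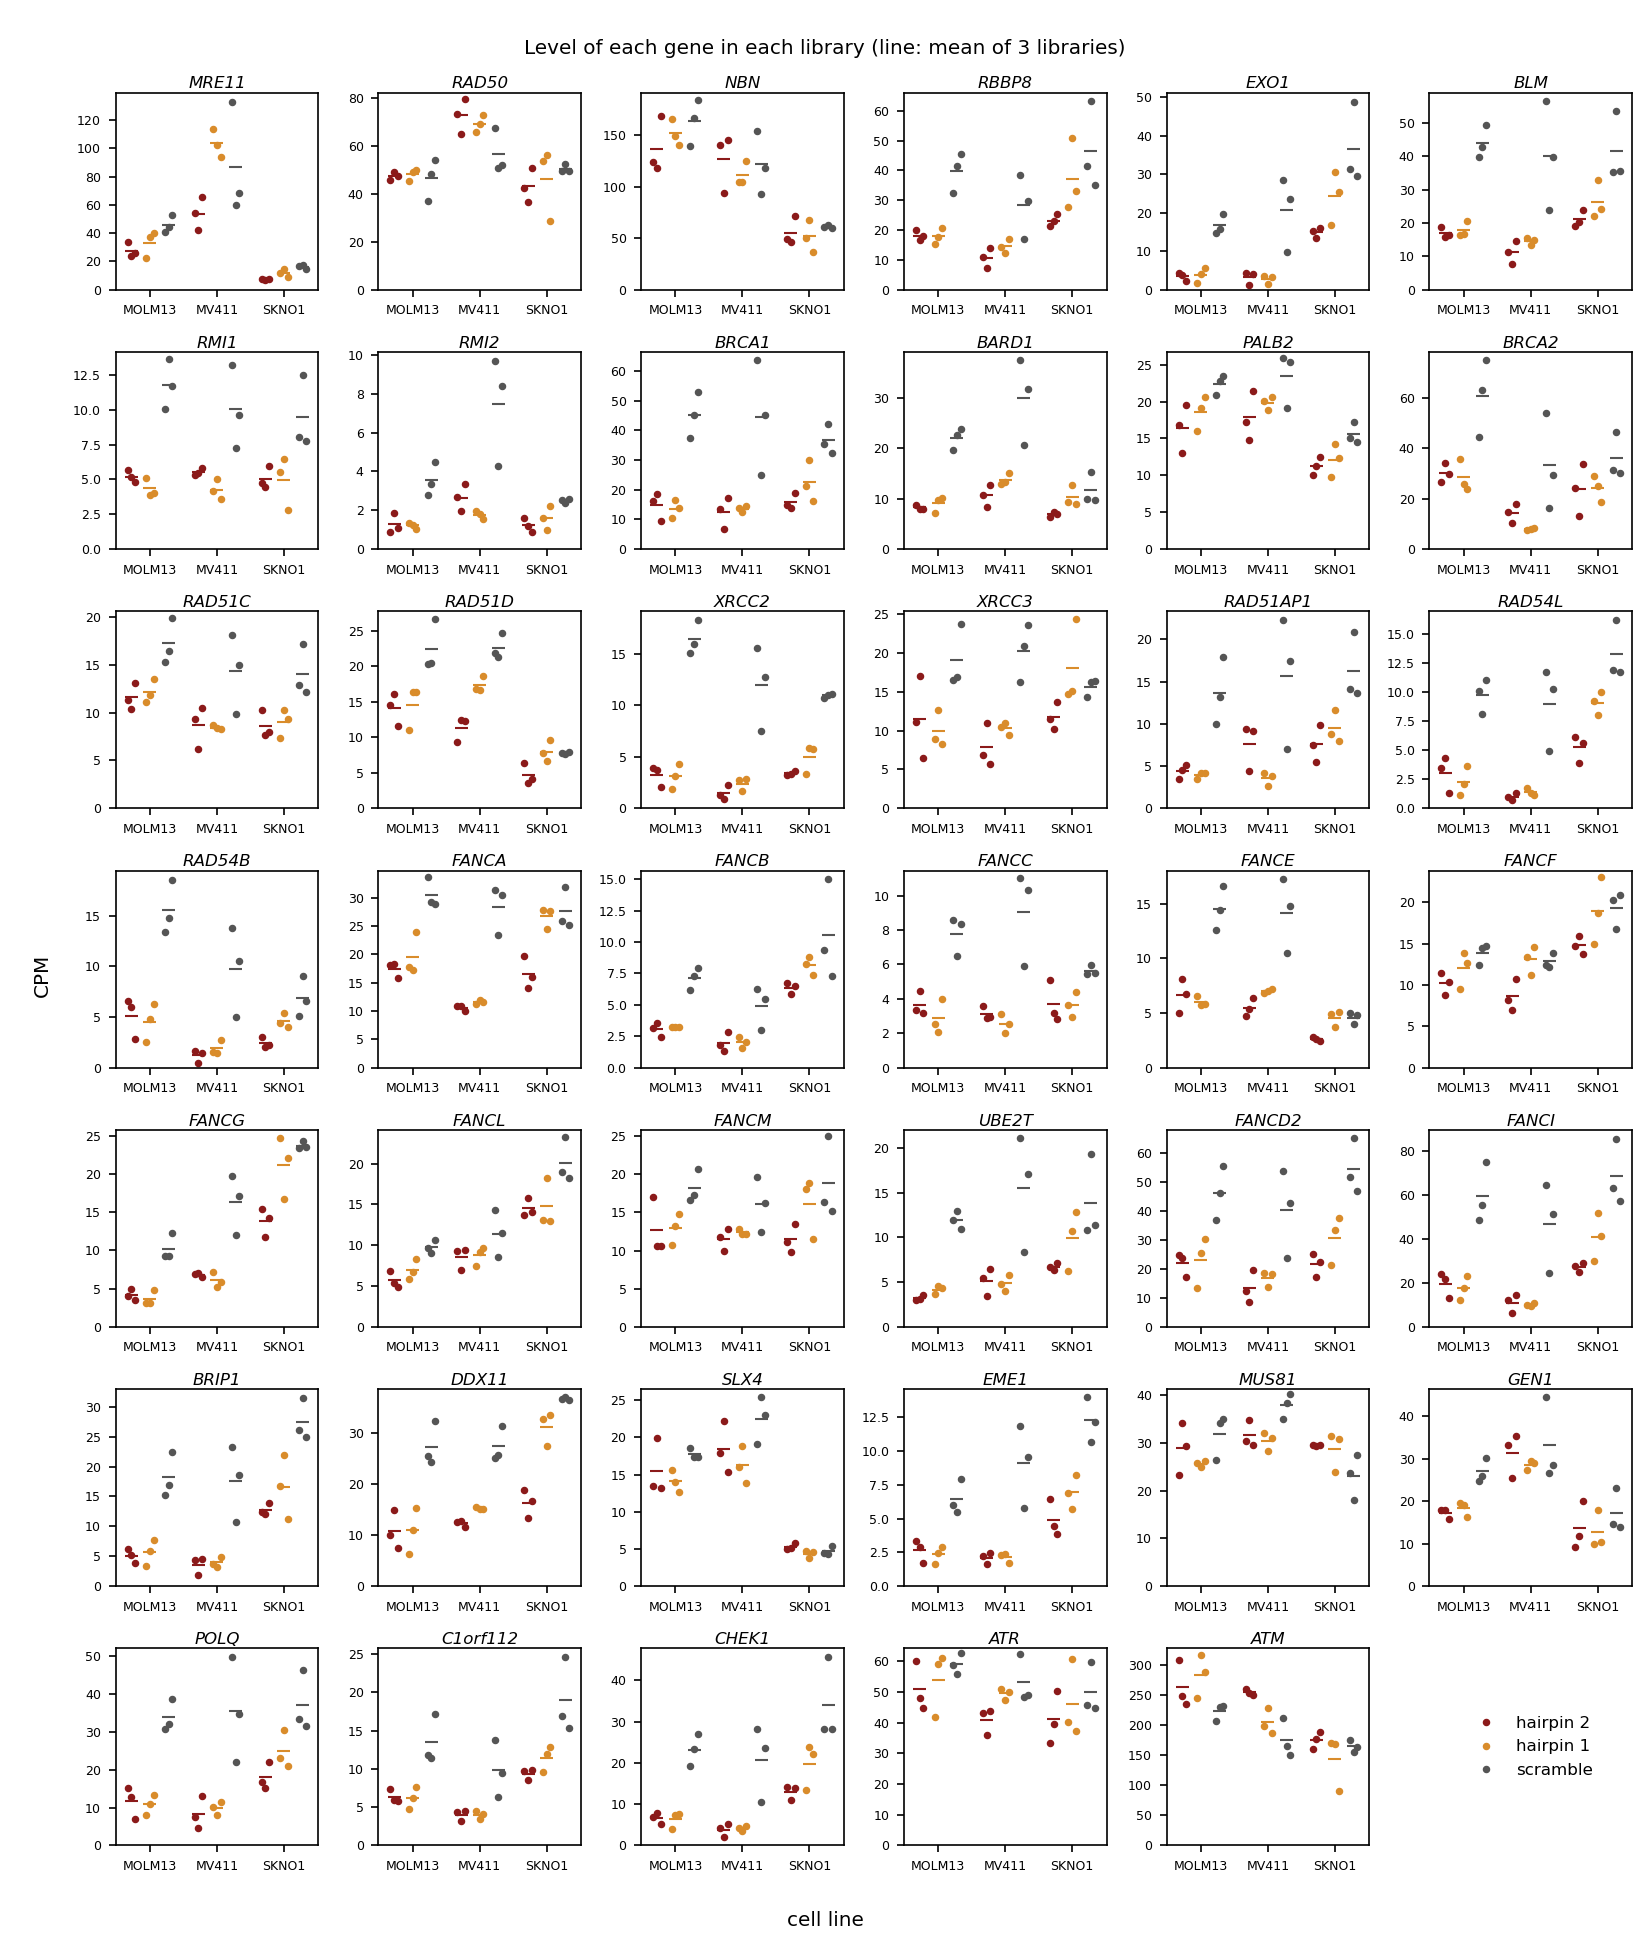
Level in CPM (y axis, linear from 0) of each gene in each of the 27 libraries, with hairpin 2, hairpin 1 and scramble from left to right in each line (x axis); each point is a library and each horizontal line the mean of 3. In genes such as XRCC2, EXO1 and CHEK1 every MOLM13 and MV411 hairpin library lies below every scramble library of its line, while RAD50 and NBN libraries overlap in every line.

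Promoters were read from RefSeq (GRCh38.p14) as the 250 bases before and 50 bases from each start site, and 37 of the 41 genes had an entry. Those shown are XRCC2, lower in all 6 comparisons, EXO1 and FANCD2, lower with hairpin 2 in all 3 lines, and RAD50, lower in none. Capitals mark an E2F-type 8-base word, searched as TTTCCCGC, TTTGGCGC, TTTGCCGC or TTTCGCGC on both strands. E2F factors are known regulators of genes used in S phase.
XRCC2 (chr7:152676092-152676391, minus strand): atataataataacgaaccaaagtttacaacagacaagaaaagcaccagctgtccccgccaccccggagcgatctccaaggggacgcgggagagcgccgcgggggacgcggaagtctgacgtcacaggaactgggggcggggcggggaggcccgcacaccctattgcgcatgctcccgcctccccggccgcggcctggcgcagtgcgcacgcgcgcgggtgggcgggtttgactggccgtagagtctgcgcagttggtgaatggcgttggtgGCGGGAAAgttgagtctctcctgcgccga
EXO1 (chr1:241847954-241848253, plus strand): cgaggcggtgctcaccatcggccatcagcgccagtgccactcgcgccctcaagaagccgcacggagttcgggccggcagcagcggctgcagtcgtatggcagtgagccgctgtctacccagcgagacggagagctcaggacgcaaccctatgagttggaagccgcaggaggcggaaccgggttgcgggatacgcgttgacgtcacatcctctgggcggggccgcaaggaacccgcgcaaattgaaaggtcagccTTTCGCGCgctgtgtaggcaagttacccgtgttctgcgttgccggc
FANCD2 (chr3:10026187-10026486, plus strand): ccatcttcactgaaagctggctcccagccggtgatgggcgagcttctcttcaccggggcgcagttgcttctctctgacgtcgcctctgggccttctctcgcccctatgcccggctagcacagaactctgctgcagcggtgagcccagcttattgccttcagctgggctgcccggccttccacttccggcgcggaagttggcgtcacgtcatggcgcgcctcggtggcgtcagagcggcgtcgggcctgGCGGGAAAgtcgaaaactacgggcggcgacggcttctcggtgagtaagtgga
RAD50 (chr5:132556727-132557026, plus strand): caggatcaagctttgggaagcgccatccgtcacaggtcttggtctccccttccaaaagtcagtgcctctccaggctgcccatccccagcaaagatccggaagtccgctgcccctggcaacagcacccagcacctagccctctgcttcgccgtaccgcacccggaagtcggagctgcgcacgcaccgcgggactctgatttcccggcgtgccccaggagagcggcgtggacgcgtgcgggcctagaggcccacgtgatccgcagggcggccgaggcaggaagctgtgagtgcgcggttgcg
The word begins at base 272 of the XRCC2 window, at base 255 in EXO1 and at base 249 in FANCD2, counted from the 5′ end, close to the start site in each. None of the words was found in the RAD50 window or in a second EXO1 window at a later start site (chr1:241848481-241848780). One of these words was found in 8 of the 37 genes (21.6%), against 3.99% of all 27305 genes with entries. Of the genes lower with hairpin 2 in all 3 lines, 5 of 17 held one (29.4%), and of those lower in no line, 0 of 8 did. XRCC2, EXO1 and FANCD2 are among those 5, so the windows shown are not typical of the genes that fell. Most of the 17, BRCA1, BARD1, BLM and CHEK1 among them, held none. The CHR word TTTGAA, found in many genes of late cell cycle, was in 6 of 37 (16.2%) against 18.2% of all genes. CCAAT was in 17 of 37 (45.9%) against 39.7%. A match is a description of the letters and was not tested as a binding site, and genes with several start sites had more windows searched.

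Break sensing and resection split between genes that fell and genes that did not. Of its 8 genes, 5 were lower with hairpin 2 in each line, and 5, 4 and 0 were lower with hairpin 1 in MOLM13, MV411 and SKNO1. EXO1, an exonuclease that lengthens resected ends, gave among the largest falls. In MOLM13, EXO1 was at 4.45, 3.87 and 2.15 CPM with hairpin 2, 1.77, 4.04 and 5.55 CPM with hairpin 1 and 14.8, 15.8 and 19.7 CPM with scramble. In MV411, it was at 4.26, 1.26 and 4.19 CPM with hairpin 2, 3.58, 1.53 and 3.34 CPM with hairpin 1 and 28.6, 9.85 and 23.4 CPM with scramble. In SKNO1, EXO1 was at 15.2, 13.4 and 16.0 CPM with hairpin 2, 16.8, 30.5 and 25.5 CPM with hairpin 1 and 31.4, 48.8 and 29.7 CPM with scramble. Every hairpin library of MOLM13 and MV411 was below every scramble library, and in SKNO1 hairpin 2 was, while hairpin 1 overlapped scramble. EXO1 changed with hairpin 2 by log2 -2.24 ± 0.39 (adjusted p = 0.00921) in MOLM13, -2.69 ± 0.50 (adjusted p = 0.00408) in MV411 and -1.32 ± 0.25 (adjusted p = 0.00736) in SKNO1. The SKNO1 call was lost when 1 library was left out (adjusted p up to 0.0574).

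BLM, the helicase that unwinds ends and dissolves joint molecules, was at 18.8, 15.8 and 16.4 CPM with hairpin 2, 16.4, 16.7 and 20.6 CPM with hairpin 1 and 39.9, 42.7 and 49.4 CPM with scramble in MOLM13. All 6 MOLM13 hairpin libraries lay below 21 CPM and all scramble libraries above 39 CPM. BLM changed by log2 -1.35 ± 0.16 (adjusted p = 0.00159) with hairpin 2 and -1.30 ± 0.16 (adjusted p = 0.00199) with hairpin 1 in MOLM13, by -1.87 ± 0.30 (adjusted p = 0.00191) with hairpin 2 in MV411 and by -0.99 ± 0.22 (adjusted p = 0.0158) in SKNO1. Its partner RMI2 was at 2.67, 1.94 and 3.35 CPM with hairpin 2, 1.94, 1.81 and 1.54 CPM with hairpin 1 and 9.72, 4.30 and 8.38 CPM with scramble in MV411. RMI2 levels of hairpin and scramble libraries did not overlap there, and the log2 fold change was -1.51 ± 0.31 (adjusted p = 0.00669) with hairpin 2 and -2.09 ± 0.32 (adjusted p = 0.00474) with hairpin 1. RMI1, another subunit of that complex, changed by -1.45 ± 0.21 (adjusted p = 0.00467) with hairpin 1 in MOLM13. RBBP8 (CtIP), which starts resection, was at 20.1, 16.5 and 17.9 CPM with hairpin 2, 15.3, 17.5 and 20.9 CPM with hairpin 1 and 32.3, 41.6 and 45.6 CPM with scramble in MOLM13, with no overlap. RBBP8 changed by log2 -1.11 ± 0.18 (adjusted p = 0.00611) with hairpin 2 in MOLM13, -1.42 ± 0.30 (adjusted p = 0.00799) in MV411 and -1.03 ± 0.26 (adjusted p = 0.0267) in SKNO1, where the call was lost in 5 of the 6 fits with a library left out. With hairpin 1 in MV411, RBBP8 passed only with the replicate number as a block (-0.92, adjusted p = 0.009). That block raised the calls over all genes tested in MV411, in either direction. They were 2250 of 17816 with hairpin 1 and 4869 with hairpin 2, against 1159 and 3313 as reported.

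The sensor complex of MRE11, RAD50 and NBN gave a single call against scramble. MRE11, its nuclease, was at 54.0, 42.4 and 65.3 CPM with hairpin 2, 114, 102 and 94.2 CPM with hairpin 1 and 133, 60.0 and 68.3 CPM with scramble in MV411. There hairpin 1 libraries lay above all scramble libraries but replicate 1, and hairpin 2 libraries lay below or among them. In SKNO1, MRE11 was at 7.78, 7.06 and 7.52 CPM with hairpin 2, 12, 14.8 and 9.01 CPM with hairpin 1 and 16.8, 17.1 and 14.7 CPM with scramble, with hairpin 2 below every other library of the line. The log2 fold change of MRE11 with hairpin 2 was -1.13 ± 0.20 (adjusted p = 0.0043) in SKNO1, and it did not pass in MOLM13 (-0.71 ± 0.23, adjusted p = 0.0765) or MV411 (-0.72 ± 0.27, adjusted p = 0.0941). With the replicate number as a block, the MV411 value was -0.65 and passed (adjusted p = 0.0467). RAD50, the complex's ATPase, was at 73.4, 65.3 and 79.8 CPM with hairpin 2, 65.9, 69.4 and 72.9 CPM with hairpin 1 and 67.5, 50.9 and 52.0 CPM with scramble in MV411 and at 45.9, 49.1 and 47.5 CPM with hairpin 2, 45.3, 49.2 and 50.1 CPM with hairpin 1 and 37.1, 48.3 and 54.3 CPM with scramble in MOLM13. Those groups overlap, and the log2 fold changes of RAD50 with hairpin 2 were 0.34 ± 0.14 (adjusted p = 0.131) and 0.05 ± 0.16 (adjusted p = 0.864). NBN, which links the complex to ATM, ranged over log2 fold changes of -0.25 to 0.03 in the 6 comparisons and passed in none.

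The BRCA mediators fell except PALB2. BRCA1, a ubiquitin ligase that promotes resection and filament assembly, was at 16.1, 18.6 and 9.54 CPM with hairpin 2, 10.3, 16.4 and 13.9 CPM with hairpin 1 and 37.5, 45.4 and 53.1 CPM with scramble in MOLM13. In MV411, BRCA1 was at 13.6, 6.75 and 17.3 CPM with hairpin 2, 13.7, 12.5 and 14.6 CPM with hairpin 1 and 63.6, 24.8 and 45.2 CPM with scramble. In SKNO1, BRCA1 was at 15, 13.8 and 19 CPM with hairpin 2, 21.2, 30.1 and 16.2 CPM with hairpin 1 and 35.4, 42.2 and 32.4 CPM with scramble. Hairpin and scramble libraries did not overlap in any line. The log2 fold change of BRCA1 with hairpin 2 was -1.59 ± 0.27 (adjusted p = 0.00773) in MOLM13, -1.85 ± 0.36 (adjusted p = 0.00498) in MV411 and -1.22 ± 0.24 (adjusted p = 0.0078) in SKNO1, and with hairpin 1 in SKNO1 it was -0.71 ± 0.23 (adjusted p = 0.156), which did not pass. BRCA1 has a nearby pseudogene copy, BRCA1P1, so part of its count is uncertain. BARD1, the partner of BRCA1 in the ligase, was at 8.80, 7.87 and 7.99 CPM with hairpin 2, 7.17, 9.77 and 10.2 CPM with hairpin 1 and 19.5, 22.6 and 23.8 CPM with scramble in MOLM13, with all hairpin libraries below all scramble libraries. BARD1 changed with hairpin 2 by -1.40 ± 0.18 (adjusted p = 0.00255) in MOLM13, -1.52 ± 0.22 (adjusted p = 0.00125) in MV411 and -0.78 ± 0.22 (adjusted p = 0.0401) in SKNO1, the last lost in all 6 fits that left out a library.

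BRCA2, a mediator of filament assembly, was at 14.7, 10.4 and 17.9 CPM with hairpin 2, 7.66, 7.91 and 8.41 CPM with hairpin 1 and 54.1, 16.2 and 29.6 CPM with scramble in MV411. Hairpin 1 libraries of MV411 lay below all others, and hairpin 2 replicate 3 overlapped scramble replicate 2. BRCA2 changed by log2 -1.24 ± 0.35 (adjusted p = 0.0329) with hairpin 2 and -2.07 ± 0.37 (adjusted p = 0.00815) with hairpin 1 in MV411, by -0.99 ± 0.23 (adjusted p = 0.0247) with hairpin 2 in MOLM13, and did not pass in SKNO1 (-0.62 ± 0.31, adjusted p = 0.221). PALB2, the bridge between BRCA1 and BRCA2, had log2 fold changes between -0.48 and -0.25 in the 6 comparisons and passed in none. With the replicate block, PALB2 passed with hairpin 2 in MV411 (log2 -0.42, adjusted p = 0.0346).

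Among the strand exchange factors, XRCC2 fell in every comparison with scramble. XRCC2, a strand exchange factor whose gene lies at chr7:152644779-152676165 on the minus strand (GRCh38), was at 3.91, 3.75 and 2.04 CPM with hairpin 2, 1.90, 3.14 and 4.28 CPM with hairpin 1 and 15.1, 16.0 and 18.3 CPM with scramble in MOLM13. In MV411, XRCC2 was at 1.26, 0.908 and 2.24 CPM with hairpin 2, 2.73, 1.66 and 2.84 CPM with hairpin 1 and 15.6, 7.51 and 12.7 CPM with scramble. In SKNO1, XRCC2 was at 3.26, 3.35 and 3.61 CPM with hairpin 2, 3.30, 5.86 and 5.77 CPM with hairpin 1 and 10.7, 11.1 and 11.2 CPM with scramble. All 18 hairpin libraries lay below all scramble libraries of their own line. XRCC2 changed with hairpin 2 by log2 -2.32 ± 0.33 (adjusted p = 0.00382) in MOLM13, -3.03 ± 0.38 (adjusted p = 0.000531) in MV411 and -1.70 ± 0.22 (adjusted p = 0.00101) in SKNO1. With hairpin 1, the log2 fold change of XRCC2 was -2.40 ± 0.33 (adjusted p = 0.00363) in MOLM13, -2.32 ± 0.36 (adjusted p = 0.00523) in MV411 and -1.15 ± 0.22 (adjusted p = 0.0435) in SKNO1. The SKNO1 hairpin 1 call was lost in 5 of the 6 fits that left out a library, with adjusted p of up to 0.302.

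RAD54L, a motor protein that drives strand exchange, was at 0.989, 0.721 and 1.33 CPM with hairpin 2, 1.74, 1.31 and 1.11 CPM with hairpin 1 and 11.7, 4.96 and 10.3 CPM with scramble in MV411. In SKNO1, RAD54L was at 6.17, 3.93 and 5.65 CPM with hairpin 2, 9.21, 8.03 and 10.1 CPM with hairpin 1 and 11.9, 16.2 and 11.8 CPM with scramble. No hairpin library overlapped scramble in either line, and in SKNO1 every hairpin 2 library was also below every hairpin 1 library. RAD54L changed with hairpin 2 by log2 -3.16 ± 0.36 (adjusted p = 0.000366) in MV411, the largest fall of the 41 genes in any of the 6 comparisons, by -1.36 ± 0.22 (adjusted p = 0.00292) in SKNO1 and by -1.65 ± 0.47 (adjusted p = 0.051) in MOLM13, which did not pass. RAD54B, its paralog, was at 1.66, 0.497 and 1.46 CPM with hairpin 2, 1.53, 1.47 and 2.68 CPM with hairpin 1 and 13.8, 5.03 and 10.5 CPM with scramble in MV411 and at 3.06, 2.00 and 2.21 CPM with hairpin 2, 4.42, 5.37 and 4.01 CPM with hairpin 1 and 5.11, 9.0 and 6.62 CPM with scramble in SKNO1. The same separation held for hairpin 2 in both lines, and hairpin 1 replicate 2 overlapped scramble in SKNO1. The log2 fold change of RAD54B with hairpin 2 was -3.02 ± 0.46 (adjusted p = 0.00149) in MV411, -1.53 ± 0.26 (adjusted p = 0.00385) in SKNO1 and -1.58 ± 0.37 (adjusted p = 0.0269) in MOLM13.

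RAD51AP1, which stimulates strand invasion, was at 9.35, 4.38 and 9.17 CPM with hairpin 2, 4.14, 2.69 and 3.88 CPM with hairpin 1 and 22.4, 7.03 and 17.5 CPM with scramble in MV411, with hairpin 1 below all scramble libraries and hairpin 2 overlapping scramble replicate 2. RAD51AP1 changed there by log2 -2.14 ± 0.41 (adjusted p = 0.012) with hairpin 1, and with hairpin 2 by -1.06 ± 0.39 (adjusted p = 0.0911), which did not pass unless the replicate number was blocked (-1.0, adjusted p = 0.00359). RAD51D, which acts in the same complex as XRCC2, was at 9.35, 12.4 and 12.2 CPM with hairpin 2, 16.7, 16.6 and 18.6 CPM with hairpin 1 and 21.9, 21.3 and 24.6 CPM with scramble in MV411, where every hairpin 2 library lay below every other library. RAD51D passed with hairpin 2 in MV411 (-1.02 ± 0.15, adjusted p = 0.00125). It did not pass in SKNO1 (-0.75 ± 0.23, adjusted p = 0.054) or MOLM13 (-0.65 ± 0.21, adjusted p = 0.078) with hairpin 2. XRCC3, which pairs with RAD51C, passed in MV411 with hairpin 2 (-1.39 ± 0.24, adjusted p = 0.0031) and hairpin 1 (-0.98 ± 0.24, adjusted p = 0.0351). RAD51C passed in SKNO1 with hairpin 2 (-0.72 ± 0.21, adjusted p = 0.0429), a call lost in all 6 fits that left out a library, and with the block in MV411 with hairpin 2 (-0.74, adjusted p = 0.0128) and hairpin 1 (-0.73, adjusted p = 0.0262).

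Of the 9 core complex genes, 6, 7 and 4 fell with hairpin 2 in MOLM13, MV411 and SKNO1, and 6, 6 and 0 with hairpin 1. UBE2T, the ubiquitin-conjugating enzyme that serves the complex, was at 3.02, 3.15 and 3.56 CPM with hairpin 2, 3.63, 4.53 and 4.31 CPM with hairpin 1 and 11.9, 13 and 10.9 CPM with scramble in MOLM13. Hairpin libraries lay below 5 CPM and scramble libraries above 10 CPM, without overlap. UBE2T changed with hairpin 2 by log2 -1.86 ± 0.20 (adjusted p = 0.00117) in MOLM13, -1.62 ± 0.33 (adjusted p = 0.0072) in MV411 and -1.06 ± 0.28 (adjusted p = 0.0319) in SKNO1, the last lost in all 6 fits that left out a library. FANCA, a scaffold subunit, was at 10.8, 10.9 and 9.90 CPM with hairpin 2, 11.2, 11.8 and 11.5 CPM with hairpin 1 and 31.4, 23.3 and 30.5 CPM with scramble in MV411. In SKNO1, FANCA was at 19.6, 14.1 and 16.0 CPM with hairpin 2, 27.8, 24.5 and 27.6 CPM with hairpin 1 and 25.9, 31.9 and 25.2 CPM with scramble. FANCA in MV411 was lower in all 6 hairpin libraries than in any scramble library, and in SKNO1 only hairpin 2 lay apart. The log2 fold change of FANCA was -1.45 ± 0.15 (adjusted p = 0.000259) with hairpin 2 and -1.31 ± 0.15 (adjusted p = 0.00235) with hairpin 1 in MV411, and -0.75 ± 0.18 (adjusted p = 0.0205) with hairpin 2 in SKNO1. In MOLM13, FANCA changed by -0.78 ± 0.17 (adjusted p = 0.019) with hairpin 2 and by -0.64 ± 0.17 (adjusted p = 0.0453) with hairpin 1, and the hairpin 1 call was lost with the replicate block (adjusted p = 0.0788).

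FANCG, another scaffold subunit, was at 6.86, 7.07 and 6.49 CPM with hairpin 2, 7.24, 5.22 and 5.83 CPM with hairpin 1 and 19.8, 12.1 and 17.1 CPM with scramble in MV411, with hairpin libraries below all scramble libraries. FANCG changed with hairpin 2 by log2 -1.28 ± 0.21 (adjusted p = 0.00196) in MV411, -1.27 ± 0.26 (adjusted p = 0.0158) in MOLM13 and -0.79 ± 0.18 (adjusted p = 0.0176) in SKNO1. FANCE, which binds FANCD2, was at 2.79, 2.58 and 2.40 CPM with hairpin 2, 4.87, 3.68 and 5.05 CPM with hairpin 1 and 4.96, 3.97 and 4.80 CPM with scramble in SKNO1. Only hairpin 2 lay below scramble there. FANCE changed with hairpin 2 by -0.83 ± 0.20 (adjusted p = 0.0199) in SKNO1, -1.39 ± 0.20 (adjusted p = 0.00119) in MV411 and -1.11 ± 0.22 (adjusted p = 0.0149) in MOLM13. FANCC was at 3.57, 2.88 and 2.92 CPM with hairpin 2, 3.09, 2.03 and 2.52 CPM with hairpin 1 and 11, 5.89 and 10.3 CPM with scramble in MV411, where hairpin and scramble libraries did not overlap, and changed by log2 -1.56 ± 0.26 (adjusted p = 0.00248) with hairpin 2 and -1.84 ± 0.27 (adjusted p = 0.00414) with hairpin 1. FANCB passed with both hairpins in MOLM13 and MV411, with log2 fold changes between -1.32 and -1.14. FANCF passed in 1 comparison, with hairpin 2 in MV411 (-0.60 ± 0.18, adjusted p = 0.0403), a call lost in 5 of the 6 fits that left out a library. FANCL, the ligase subunit, and FANCM, the translocase that anchors the complex on DNA, passed in none, at -0.75 to -0.40 and -0.73 to -0.24. With the block, FANCM passed with hairpin 2 in MV411 (-0.49, adjusted p = 0.0322).

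All 4 genes of the clamp and the helicases near it fell with hairpin 2 in every line. FANCI, which forms the clamp with FANCD2, was at 24.1, 21.6 and 13.3 CPM with hairpin 2, 12.4, 17.5 and 23.1 CPM with hairpin 1 and 48.5, 55.2 and 74.8 CPM with scramble in MOLM13. In MV411, FANCI was at 12.1, 6.39 and 14.5 CPM with hairpin 2, 10.1, 9.55 and 10.6 CPM with hairpin 1 and 64.5, 24.5 and 51.3 CPM with scramble. In SKNO1, FANCI was at 27.7, 24.8 and 29.1 CPM with hairpin 2, 29.9, 51.8 and 41.3 CPM with hairpin 1 and 63.2, 85.6 and 57.1 CPM with scramble. Hairpin and scramble libraries of FANCI did not overlap in any line. Its log2 fold change with hairpin 2 was -1.57 ± 0.28 (adjusted p = 0.01) in MOLM13, -2.11 ± 0.35 (adjusted p = 0.00218) in MV411 and -1.35 ± 0.23 (adjusted p = 0.00357) in SKNO1. FANCD2, the subunit whose ubiquitin mark activates the pathway, was at 25.2, 17.4 and 22.3 CPM with hairpin 2, 21.4, 33.6 and 37.5 CPM with hairpin 1 and 51.8, 65.3 and 46.9 CPM with scramble in SKNO1, with all 6 hairpin libraries below scramble. FANCD2 changed with hairpin 2 by log2 -1.35 ± 0.24 (adjusted p = 0.00439) in SKNO1, -1.60 ± 0.32 (adjusted p = 0.00668) in MV411 and -1.04 ± 0.28 (adjusted p = 0.0438) in MOLM13, where the call was lost in 5 of the 6 fits that left out a library. FANCD2 has pseudogene copies that could share reads.

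BRIP1, a helicase that binds BRCA1, was at 4.44, 1.82 and 4.54 CPM with hairpin 2, 3.72, 3.28 and 4.95 CPM with hairpin 1 and 23.3, 10.7 and 18.6 CPM with scramble in MV411, with every hairpin library below every scramble library. BRIP1 changed with hairpin 2 by log2 -2.30 ± 0.36 (adjusted p = 0.00172) in MV411, -1.82 ± 0.31 (adjusted p = 0.00823) in MOLM13 and -1.12 ± 0.23 (adjusted p = 0.00964) in SKNO1. DDX11, a helicase that acts at replication forks, was at 18.7, 13.2 and 16.7 CPM with hairpin 2, 32.6, 27.5 and 33.4 CPM with hairpin 1 and 36.6, 37.0 and 36.3 CPM with scramble in SKNO1. In SKNO1, DDX11 fell into 3 levels without overlap, lowest with hairpin 2 and highest with scramble. The log2 fold change of DDX11 with hairpin 2 was -1.19 ± 0.17 (adjusted p = 0.00184) in SKNO1, -1.18 ± 0.14 (adjusted p = 0.000397) in MV411 and -1.31 ± 0.33 (adjusted p = 0.0342) in MOLM13. DDX11 has near-identical copies elsewhere in the genome and an antisense gene, so its counts are uncertain.

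Of the 4 structure-specific nuclease genes, EME1 fell in 5 comparisons and GEN1 in 1. EME1, the partner subunit of the MUS81 nuclease, was at 2.20, 1.63 and 2.42 CPM with hairpin 2, 2.28, 2.38 and 1.74 CPM with hairpin 1 and 11.9, 5.81 and 9.58 CPM with scramble in MV411. In SKNO1, EME1 was at 6.42, 4.43 and 3.84 CPM with hairpin 2, 6.87, 5.72 and 8.26 CPM with hairpin 1 and 14.0, 10.7 and 12.1 CPM with scramble. In both lines all hairpin libraries lay below all scramble libraries. EME1 changed with hairpin 2 by log2 -2.14 ± 0.28 (adjusted p = 0.000722) in MV411, -1.33 ± 0.22 (adjusted p = 0.00338) in SKNO1 and -1.27 ± 0.32 (adjusted p = 0.0368) in MOLM13. MUS81, the catalytic subunit, passed in none of the 6 comparisons. In SKNO1, MUS81 was at 29.5, 29.4 and 29.5 CPM with hairpin 2, 31.4, 24.0 and 30.9 CPM with hairpin 1 and 23.8, 18.2 and 27.5 CPM with scramble, and in MV411 it was at 30.5, 34.8 and 29.6 CPM with hairpin 2, 32.1, 28.2 and 31.0 CPM with hairpin 1 and 35.1, 38.5 and 40.2 CPM with scramble. MUS81 was above scramble in all 3 SKNO1 hairpin 2 libraries and below it in all 3 MV411 ones, and neither difference passed, at 0.34 ± 0.18 (adjusted p = 0.259) in SKNO1 and -0.28 ± 0.13 (adjusted p = 0.161) in MV411. SLX4, the scaffold of these nucleases, was between -0.48 and 0.15 and passed in none, but passed with the block with hairpin 1 in MV411 (-0.49, adjusted p = 0.0412). GEN1, a Holliday junction resolvase, passed in 1 comparison, with hairpin 2 in MOLM13 (-0.62 ± 0.15, adjusted p = 0.0337), a call lost in 4 of the 6 fits that left out a library.

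POLQ and C1orf112 fell in 5 comparisons each. POLQ, the polymerase of an error-prone end joining route, was at 7.58, 4.54 and 13.2 CPM with hairpin 2, 10.1, 8.03 and 11.6 CPM with hairpin 1 and 49.8, 22 and 34.8 CPM with scramble in MV411, with hairpin libraries below scramble libraries. POLQ changed with hairpin 2 by log2 -2.10 ± 0.37 (adjusted p = 0.00315) in MV411, -1.52 ± 0.29 (adjusted p = 0.0119) in MOLM13 and -1.06 ± 0.23 (adjusted p = 0.0126) in SKNO1. C1orf112 (now FIRRM), a partner of FIGNL1 in recombination, was at 9.74, 8.48 and 9.86 CPM with hairpin 2, 9.59, 11.9 and 12.8 CPM with hairpin 1 and 16.8, 24.6 and 15.3 CPM with scramble in SKNO1, also with no overlap. C1orf112 changed with hairpin 2 by log2 -1.03 ± 0.21 (adjusted p = 0.00993) in SKNO1, -1.31 ± 0.28 (adjusted p = 0.00797) in MV411 and -1.06 ± 0.24 (adjusted p = 0.025) in MOLM13. C1orf112 overlaps exons of METTL18 and SCYL3 on the other strand. In all, 22 of the 41 genes overlap an exon on the opposite strand, and the strand setting of the counting is not given in the sources used here.

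The checkpoint kinases parted. CHEK1, which slows the cycle while forks are stalled, was at 6.89, 7.93 and 5.08 CPM with hairpin 2, 3.96, 7.44 and 7.51 CPM with hairpin 1 and 19.2, 23.5 and 27 CPM with scramble in MOLM13. In MV411, CHEK1 was at 4.19, 2.01 and 5.21 CPM with hairpin 2, 4.24, 3.38 and 4.73 CPM with hairpin 1 and 28.3, 10.4 and 23.6 CPM with scramble. In SKNO1, CHEK1 was at 14.1, 11.1 and 13.8 CPM with hairpin 2, 13.5, 23.8 and 22.1 CPM with hairpin 1 and 28.1, 45.5 and 28.1 CPM with scramble. Hairpin and scramble libraries of CHEK1 did not overlap in any line. Its log2 fold change with hairpin 2 was -1.78 ± 0.28 (adjusted p = 0.00533) in MOLM13, -2.47 ± 0.39 (adjusted p = 0.0018) in MV411 and -1.40 ± 0.26 (adjusted p = 0.00608) in SKNO1. ATR, the kinase that activates CHEK1, ranged from -0.40 to -0.12 and passed in none, but passed with the block with hairpin 2 in MV411 (-0.40, adjusted p = 0.0258). ATM, the break-activated kinase, was at 260.4, 253 and 251 CPM with hairpin 2, 199.6, 229 and 188 CPM with hairpin 1 and 212, 166 and 151 CPM with scramble in MV411. All hairpin 2 libraries lay above all scramble libraries, and ATM changed by 0.51 ± 0.15 (adjusted p = 0.0399), the only rise called. ATM overlaps exons of NPAT and C11orf65 on the other strand. ATM lost that call in 5 of the 6 fits that left out a library (adjusted p up to 0.153). In MOLM13, ATM was at 309, 249 and 236 CPM with hairpin 2, 246, 317 and 289.8 CPM with hairpin 1 and 208, 230.1 and 232 CPM with scramble, where all 6 hairpin libraries were also above scramble, and its log2 fold change with hairpin 2 was 0.27 ± 0.17 (adjusted p = 0.326).

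The hairpins of a line were also compared with each other. The scramble levels do not enter that difference, but the scramble libraries do enter the filter, the scaling and the estimate of spread. With only the 6 hairpin libraries of a line fitted, 2 genes were lower and 2 higher in MV411 and 5 lower in SKNO1. Over all genes, in either direction, that fit called 1936 of 17085 in MV411 and 1528 of 17638 in SKNO1. The values that follow are from the fits of 9 libraries. In MOLM13, where they left similar CARM1, none of the 41 genes differed in either direction, and none of all genes tested was lower (0%) or higher (0%). No member had an unadjusted p under 0.05 there, and DESeq2 called none. In SKNO1, where CARM1 was lower by log2 1.45 with hairpin 2 than with hairpin 1, 6 genes were lower with hairpin 2 and none higher, against 5% of all genes lower and 4.52% higher. These were DDX11 (-0.95 ± 0.17, adjusted p = 0.00521), FANCE (-0.81 ± 0.20, adjusted p = 0.024), FANCA (-0.69 ± 0.18, adjusted p = 0.032), RAD54L (-0.79 ± 0.22, adjusted p = 0.038), RAD54B (-0.93 ± 0.26, adjusted p = 0.041) and MRE11 (-0.68 ± 0.20, adjusted p = 0.047). Without SKNO1 hairpin 2 replicate 2 or 3, a single gene was called, DDX11, and without hairpin 1 replicate 3 a pair were. With no filter on low counts, 13 were called. Over all genes, 1754 of 18430 were called in either direction as reported. With no filter, 2442 of 34493 were called, and without hairpin 2 replicate 2, 601 of 18918 were. Of the 41 genes, 34 had lower fitted levels with hairpin 2 than with hairpin 1 in SKNO1, with a median log2 difference of -0.47. The part of the CARM1 left in the differences between hairpins was not tested in any line.

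In MV411, hairpin 2 left less CARM1 than hairpin 1 (log2 -1.02), and 2 of the 41 genes were lower with hairpin 2, MRE11 (-0.95 ± 0.27, adjusted p = 0.0456) and RAD51D (-0.62 ± 0.15, adjusted p = 0.0227). The background was 5.62% of genes lower and 5.86% higher. MRE11 was at 54.0, 42.4 and 65.3 CPM with hairpin 2 and 114, 102 and 94.2 CPM with hairpin 1, and RAD51D was at 9.35, 12.4 and 12.2 CPM with hairpin 2 and 16.7, 16.6 and 18.6 CPM with hairpin 1, with no overlap in either gene. Same-numbered libraries deviated together in this comparison, and with the replicate number as a block 4 genes were lower and 1 higher. Those added were XRCC2 (-0.73, adjusted p = 0.0488), FANCF (-0.62, adjusted p = 0.0101) and, higher with hairpin 2, RAD51AP1 (1.03, adjusted p = 0.00619). Over all genes, in either direction, the block called 3516 of 17816, against 2046 as reported. Leaving out any hairpin 1 replicate, or hairpin 2 replicate 1, gave none lower.

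The effect of hairpin 2 was compared between lines by an interaction term. No member passed in any of the 3 pairs. For MOLM13 against MV411, 0.0517% of all genes were lower and 0.0188% higher; for MOLM13 against SKNO1, 0.296% and 0.193%; for MV411 against SKNO1, 0.55% and 0.376%. The largest differences were between MV411 and SKNO1, where 13 genes were lower and 1 higher at an unadjusted p under 0.05. RAD54L differed by log2 -1.79 ± 0.54 (adjusted p = 0.113), FANCA by -0.69 ± 0.22 (adjusted p = 0.151) and XRCC2 by -1.31 ± 0.46 (adjusted p = 0.2), negative values meaning a deeper fall in MV411. DESeq2 called 1 gene lower in this pair, and the fit with no filter on low counts called 7. Over all genes, in either direction, DESeq2 called 579 of 21262, against 197 as reported. The fit with no filter called 808 of 42854. Between MOLM13 and MV411, 3 genes were higher and none lower at an unadjusted p under 0.05, and between MOLM13 and SKNO1 2 were lower and none higher, with DESeq2 calling none. The share of all genes at an unadjusted p under 0.05 was not worked out, so these counts cannot be set against a background. For MV411 against SKNO1, 6.12% of simulated 2-fold differences were recovered, so a miss does not show equal effects. Across the 41 genes, the hairpin 2 changes of different lines, which share no library, had Pearson's r of 0.889 (MOLM13 and MV411), 0.866 (MOLM13 and SKNO1) and 0.845 (MV411 and SKNO1), over genes that are not independent replicates.

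Markers of the cell cycle moved with these genes. Of 26 S phase genes outside the 41, hairpin 2 lowered 25 in MOLM13, 25 in MV411 and 22 in SKNO1, and hairpin 1 lowered 24, 25 and 0. Of 25 G2 and M phase genes, hairpin 2 lowered 25, 23 and 11 in MOLM13, MV411 and SKNO1, and hairpin 1 lowered 25, 24 and 0. Their median log2 fold changes with hairpin 2 were -1.69, -2.31 and -0.99 for S phase and -2.0, -2.03 and -0.80 for G2 and M phase, against -1.11, -1.32 and -0.83 for the 41 genes. The low MV411 scramble replicate 2 was low in all 3 sets, at -0.44 for the 41 genes, -0.63 for S phase and -0.84 for G2 and M phase. In bulk RNA, fewer cells in S phase and less RNA per cell cannot be told apart, and the part of cycle markers in the fall of the 41 genes was not tested.

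**Figure D3:**
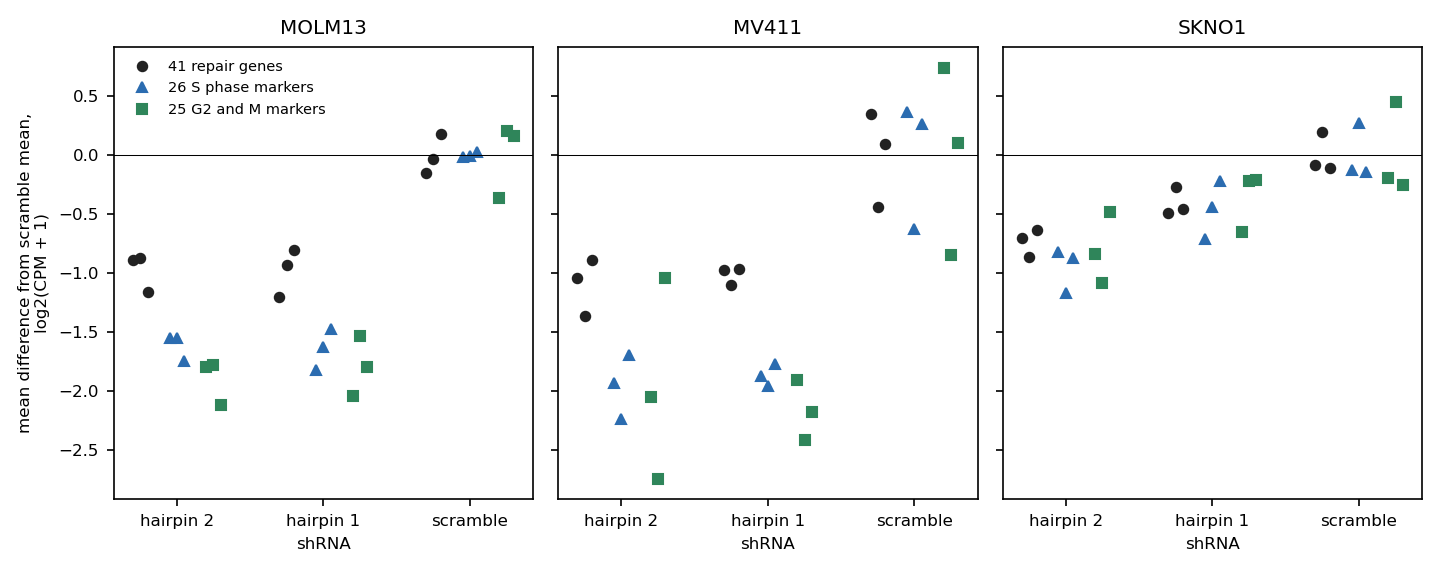
Mean difference from the scramble mean of the same line, in log2(CPM + 1) (y axis), of the 41 repair genes (black circles), 26 S phase markers (blue triangles) and 25 G2 and M phase markers (green squares) in each library, with hairpin 2, hairpin 1 and scramble from left to right in MOLM13, MV411 and SKNO1. In MOLM13 and MV411 both marker sets lie below the repair genes in all 12 hairpin libraries. Among these 12 libraries, the G2 and M markers are closest to the repair genes in MV411 hairpin 2 replicate 3, at -1.04 and -0.89. In SKNO1, the G2 and M markers lie above the repair genes in hairpin 2 replicate 3 (-0.49 against -0.64). They also do in hairpin 1 replicates 2 (-0.22 against -0.27) and 3 (-0.21 against -0.45). The S phase markers lie above the repair genes only in SKNO1 hairpin 1 replicate 3 (-0.22). In the other SKNO1 hairpin libraries both sets lie below.

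Genes of 6 other repair lists are given from the same fits, and not every repair pathway is covered. Of 37 further recombination and Fanconi genes, hairpin 2 lowered 11, 13 and 9 in MOLM13, MV411 and SKNO1, and hairpin 1 lowered 10, 7 and 0. FIGNL1, the partner of C1orf112, changed with hairpin 2 by log2 -1.79 ± 0.18 (adjusted p = 0.0011) in MOLM13, -1.87 ± 0.29 (adjusted p = 0.00164) in MV411 and -1.50 ± 0.24 (adjusted p = 0.00299) in SKNO1. Those raised were ZSWIM7 in MOLM13 (0.61) and HELB in MV411 (0.65), both with hairpin 2. The replication protein A and checkpoint list, 20 genes in 21 rows, had 9, 10 and 5 rows lower with hairpin 2 and 9, 7 and 0 with hairpin 1, CDC25A (-2.02 in MOLM13) and CLSPN (-3.23 in MV411) among them. Of 19 base excision genes, 3, 7 and 2 were lower with hairpin 2 and 2, 4 and 0 with hairpin 1, including UNG (-2.28 with hairpin 2 in MV411), which removes uracil, while NEIL2 was higher with hairpin 1 in MV411 (0.56).

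Non-homologous end joining, which rejoins breaks without a template, had 1, 2 and 1 of 12 genes lower with hairpin 2 and none with hairpin 1. PRKDC, its kinase, changed by -0.98 ± 0.25 (adjusted p = 0.0384) with hairpin 2 in MOLM13 and -1.20 ± 0.19 (adjusted p = 0.00172) in MV411. Nucleotide excision repair had 2 of 17 genes lower and 1 higher, ERCC6, with hairpin 2 in MV411 and no call in the other 5 comparisons. The 5 genes of the BRCA1-A complex, which restrains resection, gave no call in any comparison with scramble, with log2 fold changes between -0.64 and 0.40. These lists were set beside the 41 genes as counts, and the difference between lists was not tested.

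**Figure D4:**
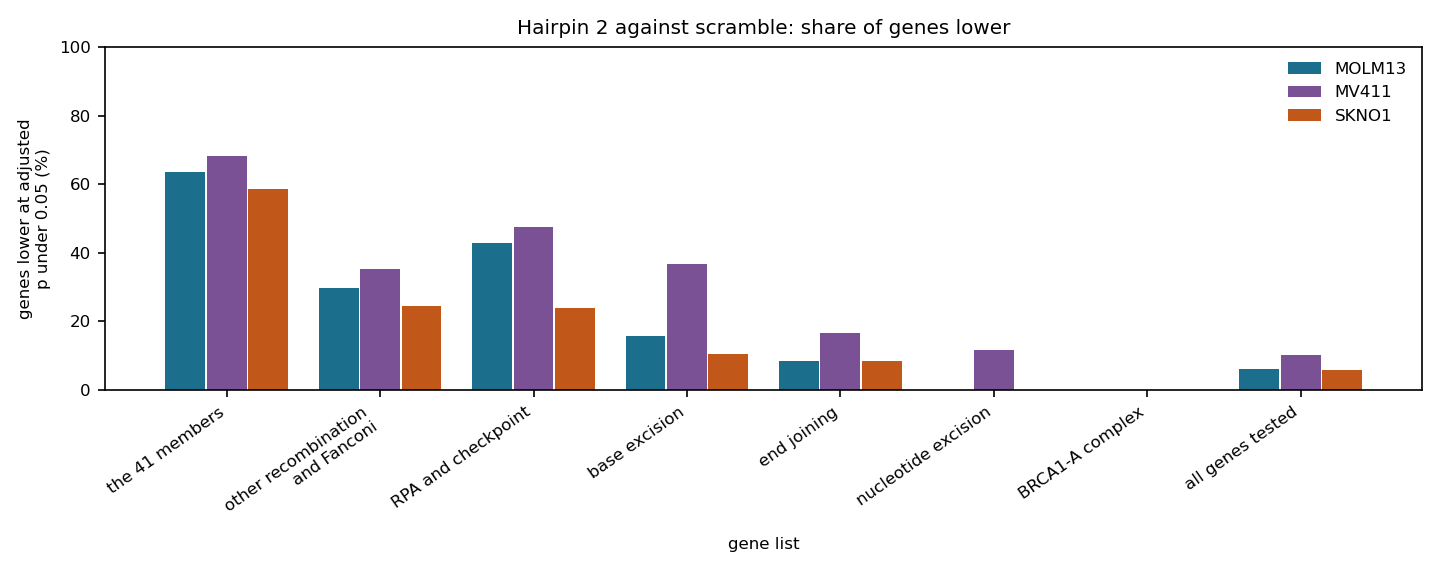
Share of the genes of each repair list that were lower with hairpin 2 than with scramble at adjusted p under 0.05 (bars, y axis in percent from 0), in MOLM13, MV411 and SKNO1. Of the lists shown, the 41 genes have the tallest bars, end joining, nucleotide excision and BRCA1-A bars are short or absent, and the last bars show all genes tested, 6.03% in MOLM13, 10.2% in MV411 and 5.69% in SKNO1.

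In scramble cells, levels per kilobase of exon spread widely between the 41 genes. NBN was highest in all 3 lines, at 9.95 ± 0.265 CPM per kb (SD, n = 3) in SKNO1, 19.8 ± 5.04 CPM per kb (SD, n = 3) in MV411 and 26.6 ± 3.63 CPM per kb (SD, n = 3) in MOLM13. FANCC was lowest in all 3 lines, at 0.440 ± 0.0221 CPM per kb (SD, n = 3) in SKNO1, 0.708 ± 0.217 CPM per kb (SD, n = 3) in MV411 and 0.609 ± 0.0905 CPM per kb (SD, n = 3) in MOLM13. Between lines, 10 genes were lower and 5 higher in SKNO1 than in MOLM13 (all genes: 26.6% lower and 25.8% higher), and 11 were lower and 6 higher in SKNO1 than in MV411 (27.1% and 25.5%). MV411 against MOLM13 gave 3 higher and none lower (14.3% higher and 13.9% lower), with 1 lower at an unadjusted p under 0.05 and 1 called by DESeq2. These shares are close to or below those of all genes. The counts of genes higher in SKNO1 moved with single libraries, to 3 without MOLM13 scramble replicate 1 or 2, and to 10 without MV411 scramble replicate 1. Those of MV411 against MOLM13 became 0 higher and 3 lower without MV411 scramble replicate 1, 1 higher and 1 lower without MOLM13 scramble replicate 1, and 1 higher without MV411 scramble replicate 3.

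MRE11 differed most between SKNO1 and MV411, and SLX4 between SKNO1 and MOLM13. MRE11 was at 16.8, 17.1 and 14.7 CPM in SKNO1 scramble libraries, 133, 60.0 and 68.3 CPM in MV411 and 40.7, 44.4 and 52.7 CPM in MOLM13. It was lower in SKNO1 than in either other line without overlap, by log2 -2.43 ± 0.26 (adjusted p = 2.45e-08) against MV411 and -1.50 ± 0.25 (adjusted p = 2.21e-05) against MOLM13. SLX4 was at 4.51, 4.34 and 5.37 CPM in SKNO1, 19.1, 25.4 and 23.1 CPM in MV411 and 18.5, 17.4 and 17.3 CPM in MOLM13. SLX4 likewise lay lowest in SKNO1, by log2 -2.25 ± 0.19 (adjusted p = 3e-10) against MV411 and -1.90 ± 0.19 (adjusted p = 4.79e-09) against MOLM13. RAD51D, FANCE, BARD1, NBN, PALB2, MUS81 and GEN1 were also lower in SKNO1 than in both other lines, with log2 differences from -1.67 to -0.46. FANCG, FANCL and FANCF were higher in SKNO1 than in both: FANCG by 1.21 ± 0.21 (adjusted p = 2.58e-05) and FANCL by 1.04 ± 0.20 (adjusted p = 0.000103) against MOLM13. EME1 and EXO1 were higher in SKNO1 than in MOLM13, by 0.92 ± 0.28 (adjusted p = 0.00726) and 1.13 ± 0.41 (adjusted p = 0.0224). FANCB, C1orf112 and RBBP8 were higher in SKNO1 than in MV411, by 1.11 ± 0.28 (adjusted p = 0.00145), 0.95 ± 0.25 (adjusted p = 0.00233) and 0.72 ± 0.27 (adjusted p = 0.029). MRE11, RMI2 and FANCG were higher in MV411 than in MOLM13, by 0.92, 1.07 and 0.67.

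**Figure D5:**
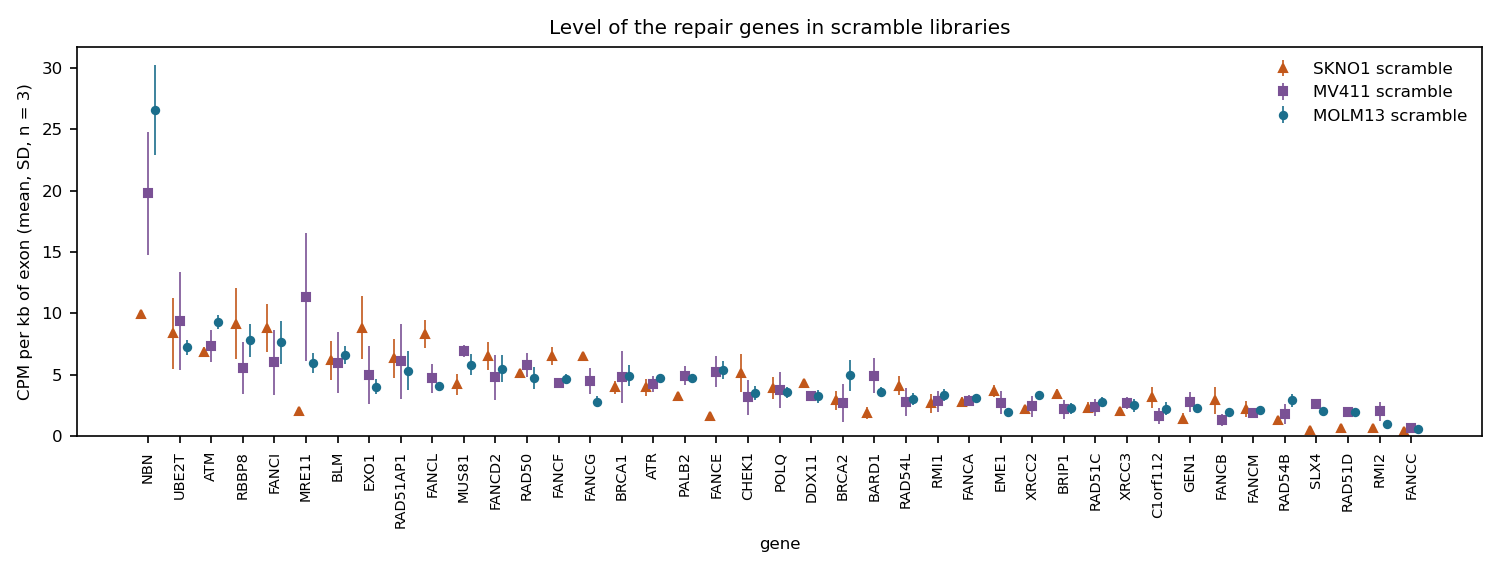
Level of each gene in scramble libraries, as CPM per kilobase of exon (y axis, mean and SD of 3 libraries), in SKNO1 (triangles), MV411 (squares) and MOLM13 (circles), ordered by the mean over lines (x axis). NBN stands highest, at 9.95 in SKNO1, 19.8 in MV411 and 26.6 in MOLM13, and FANCC lowest, while MRE11, FANCE, RAD51D and SLX4 show SKNO1 below both other lines.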

How the data were processed

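RNA was measured by sequencing of ribosomal-RNA-depleted, stranded total RNA libraries, per the labels' protocols. The authors deposited 1 table of RSEM expected counts per gene. Per the submitters' processing notes, STAR 2.5.3, RSEM and the build GRCh38.p7 were used; the strand setting is not given in the sources used here. Of the non-zero deposited expected counts, 30.39% were not whole (tolerance 1e-09), and all were rounded to whole numbers.

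Counts were fitted with edgeR 4.0.16 (R 4.3.3), with TMM scaling and filterByExpr (minimum count 10, total 15), and tested by the two-sided quasi-likelihood F-test with Benjamini-Hochberg adjustment over all genes tested, threshold 0.05. Hairpins were compared within the 9 libraries of a line, and lines within all 27. Fold changes are hairpin over scramble, given as log2 ± SE, and every adjusted p is from these fits unless a setting is named. CPM used TMM factors over the 27 libraries, and CPM per kb used GENCODE 29 exon length. Totals per library were 25063577 to 53291599, and SE and adjusted p include the spread between libraries.

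The 41 genes and the lists were chosen with earlier results of these data known. Genes named per library were those with the smallest p in a comparison, those lower with hairpin 2 in all 3 lines and those called higher, and the plot of levels by library shows all 41. Same-numbered libraries deviated together (every pair's correlation over 0.1) for MOLM13 hairpin 1 against scramble (0.264 to 0.459) and in MV411 (0.131 to 0.760), from the data and not from the labels. Differently numbered pairs ranged from -0.464 to 0.236 in the former and from -0.666 to 0.506 in MV411. The value of 0.506 was for MV411 scramble replicate 1 and hairpin 2 replicate 3. Alternatives were DESeq2 1.42.0, its size factors, no filter on low counts, a replicate block, leaving out abundant non-coding RNAs, other sets of libraries and leaving out each replicate. The edgeR fit was tested on simulated data. Some results are not reported here.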

Additional observations from a re-analysis of the deposited data

Results flagged for a closer look

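MUS81 libraries with hairpin 2 lay below scramble in MV411 and above it in SKNO1, and the difference from scramble passed in neither line (adjusted p = 0.161 in MV411 and 0.259 in SKNO1). In MV411, MUS81 was at 30.5, 34.8 and 29.6 CPM with hairpin 2 and 35.1, 38.5 and 40.2 CPM with scramble, so every hairpin 2 library was lower. In SKNO1, MUS81 was at 29.5, 29.4 and 29.5 CPM with hairpin 2 and 23.8, 18.2 and 27.5 CPM with scramble, so every hairpin 2 library was higher. The difference between the effects, MV411 minus SKNO1, was -0.61 on the log2 scale and did not pass in edgeR's quasi-likelihood test of the interaction (adjusted p = 0.232).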

How the results depend on the processing

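Counts of the 41 genes kept within 1.5 times of those reported with DESeq2's size factors. With no filter on low counts, MV411 hairpin 2 raised 0, the MV411 hairpins differed with 2 higher, SKNO1 hairpin 1 lowered 10, the SKNO1 hairpins differed with 13 lower, the MV411 against SKNO1 effect had 7 lower and MV411 against MOLM13 scramble had 1 lower. With DESeq2's Wald test, these were 1 higher between the MV411 hairpins, 7 lower with SKNO1 hairpin 1, 1 lower for the MV411 against SKNO1 effect and 1 lower for MV411 against MOLM13 scramble. With the replicate block, the MV411 hairpins differed with 4 lower and 1 higher, SKNO1 hairpin 1 lowered 2 and MV411 against MOLM13 scramble had 2 lower. Where same-numbered libraries did not deviate together, the blocked calls lost were RAD54B, FANCC, FANCD2, EME1 and GEN1 with hairpin 2 in MOLM13, and those gained were EME1 with hairpin 1 and RMI1 and RAD51D with hairpin 2 in SKNO1, RAD51D, XRCC3 and FANCG between the SKNO1 hairpins, and C1orf112, EXO1, BRIP1, CHEK1, RBBP8 and BRCA2 between scramble cells. The block changed no other call in the paired comparisons than those given above. Without abundant non-coding RNAs, SKNO1 hairpin 1 lowered 0 and MV411 against MOLM13 scramble had 1 lower. With only the 6 libraries compared, MV411 hairpin 2 raised 0, SKNO1 hairpin 1 lowered 0 and the MV411 hairpins differed with 2 higher. With all 27 libraries, MV411 hairpin 2 raised 0, SKNO1 hairpin 1 lowered 0 and the MV411 hairpins differed with 1 lower. Calls over all genes moved too. For SKNO1 hairpin 1 they went from 98 as reported to 774 with no filter and 973 with DESeq2's Wald test. They fell to 7 with only the 6 libraries compared, but rose to 186 with all 27. With the replicate block they were 458 for SKNO1 hairpin 1. Between the MV411 hairpins the block gave 3516, against 2046 as reported, and for MV411 against MOLM13 scramble 6480, against 5988. The causes were not tested.

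With each replicate left out in turn, the genes lowered ranged from 12 to 22 for MOLM13 hairpin 2, 12 to 22 for MOLM13 hairpin 1, 24 to 32 for MV411 hairpin 2, 12 to 27 for MV411 hairpin 1, 8 to 20 for SKNO1 hairpin 2 and 0 to 3 for SKNO1 hairpin 1, and MV411 hairpin 2 raised 0 to 1. Between hairpins, 0 to 3 were lower and 0 to 1 higher in MV411, and 1 to 6 lower in SKNO1. Between scramble cells, 7 to 12 were lower and 3 to 6 higher in SKNO1 than MOLM13, 10 to 11 lower and 4 to 10 higher in SKNO1 than MV411, and 0 to 3 lower and 0 to 4 higher in MV411 than MOLM13. Over single genes and all alternatives, 7745 values kept their side of the threshold, 327 lost and 169 gained a call, and no called value changed sign. The direction of values called neither as reported nor in the alternative was not checked. With 3 libraries a group and replicates of unstated origin, a miss does not show that a gene did not change.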

Other observations

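The second RAD54B row, ENSG00000283460, was at 0, 1.87 and 1.54 CPM in MOLM13 scramble libraries and at 0 in all 6 MOLM13 hairpin libraries, and was at most 1.25 CPM elsewhere.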
